A study of Mus musculus with 3 samples.

Results

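The translation initiation factors (Eif genes) and elongation factors (Eef genes) were described in tdTomato-positive hippocampal cells of the mouse. Members were the protein-coding genes whose GENCODE vM21 symbol starts with Eif or Eef and that do not lie on chromosome Y. There were 67 members, 54 Eif and 13 Eef genes, of 52636 genes in the count table. The cells came from C57BL/6J males aged 28 to 32 postnatal days and heterozygous for both Camk2a-Cre and the Cre-dependent tdTomato reporter Ai14, with no further treatment. Hippocampi were digested with papain and live red cells were collected by FACS as CA1_Pyr_FACS, with 2 to 4 mice pooled for each of the 3 replicates. The authors state that physical isolation can change gene expression and that dendritic processes are lost. Cre was driven by the Camk2a promoter, which is active in excitatory forebrain neurons and not only in CA1. The paper describes this Cre line as restricted, in the hippocampus, to CA1 pyramidal cells. There was 1 group and no second condition, so the values are levels, and an exact sign-flip test over 3 replicates could not go below p = 0.25. No p-value was therefore computed.

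Translation starts when the small ribosomal subunit, loaded with initiator tRNA by eIF2 and held open by eIF1, eIF1A and eIF3, is recruited to the mRNA cap by eIF4E, eIF4G and the RNA helicase eIF4A. eIF5 and eIF5B complete the joining of the large subunit. In each round of elongation eEF1A delivers an aminoacyl-tRNA, the eEF1B complex recharges eEF1A with GTP, and eEF2 moves the ribosome by a codon. In neurons these factors are known as control points of the protein synthesis that follows synaptic activity, mainly through phosphorylation of eIF2 and eEF2 and through the proteins that bind eIF4E.

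The libraries held 48159841, 25686630 and 15833075 assigned counts in replicates 1, 2 and 3, of which members took 298577, 153867 and 88976. Levels are TPM (length-corrected counts on a common total per library), computed from the counts and the merged-exon length of each gene over nuclear protein-coding genes, and every ± is the SD over 3 replicates. They are levels of mRNA, and amounts of protein were not measured. The CA1 markers Fibcd1, Wfs1, Mpped1 and Pou3f1 had a median of 336 ± 8.04 TPM, and the 4 excitatory markers had 1464 ± 37.7 TPM. RNA of other cells was present. The 3 markers of dentate granule cells were detected at a median of 151 ± 19.0 TPM, and the 3 of oligodendrocytes at 166 ± 32.5 TPM. Among the dentate markers C1ql2 had 621 ± 31.3 TPM, above the highest CA1 marker, Fibcd1, at 450 ± 56.5 TPM, while Dsp had 73.8 ± 5.69 TPM. The CA3 markers Grik4 and Iyd had 85.1 ± 2.26 and 12.5 ± 3.78 TPM. The 4 astrocyte markers summed to 143 to 279 TPM over the replicates, the 3 microglia markers to 24.0 to 35.8 TPM and the 3 endothelial markers to 7.41 to 60.2 TPM, all 3 lists highest in replicate 3. Of the interneuron markers, Gad1 had 52.1 ± 8.27 TPM, while Slc32a1 had 19, 0 and 0 counts. The part of these cells in the levels below was not tested, and in bulk samples fewer cells of a type and less RNA per cell cannot be told apart.

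Nearly the whole translation factor set was present, and with merged-exon lengths 3 elongation factor genes were its most abundant transcripts. Of the 67 members, 65 (97.0%) had at least 1 TPM in each replicate, beside 60.1% of 21883 nuclear protein-coding genes. A mean of at least 100 TPM was reached by 27 members (40.3%), beside 11.3% of nuclear protein-coding genes. The median member had 73.3 ± 1.95 TPM, against 34.5 ± 0.659 TPM over all detected nuclear protein-coding genes. Split by symbol, the 54 Eif genes summed to 5960 ± 49.2 TPM and the 13 Eef genes to 3910 ± 168 TPM. Both sums include regulators such as kinases, and the Eif sum includes Eif5a, so they do not separate initiation from elongation. Eef1a1, Eef1a2 and Eef2 alone made up 33.8% ± 1.10 of the summed TPM of all members. Rank order among the members was nearly the same in the 3 libraries, with a Spearman rho of 0.990 to 0.995 between pairs of replicates across the 67 genes, which are not independent replicates.

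**Figure D1:**
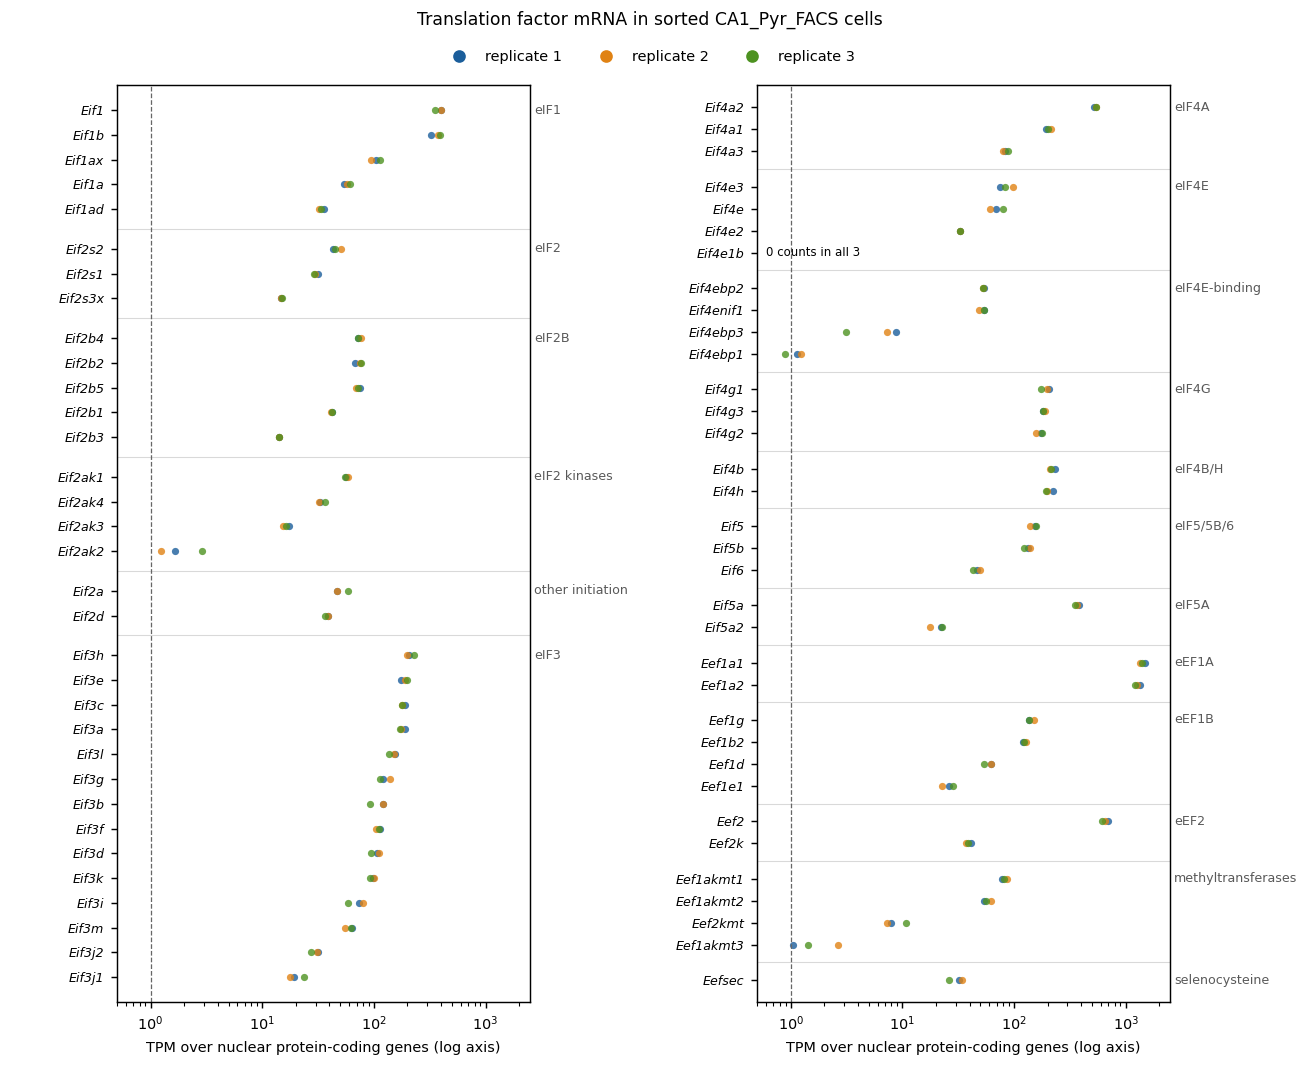
TPM of each member (log axis) in replicates 1, 2 and 3, with members grouped by factor and the dashed line at 1 TPM. Levels run up to a mean of 1410 TPM for Eef1a1, and Eif4e1b, with 0 counts in all 3 replicates, has no point.

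Elongation begins with eEF1A, the GTPase that brings charged tRNA to the ribosome, and both of its genes were expressed at close levels. Eef1a2, the form known from adult neurons and muscle, had 1353, 1261 and 1215 TPM in replicates 1, 2 and 3. Eef1a1, the form found in most cell types, had 1491, 1343 and 1396 TPM. Eef1a2 was lower than Eef1a1 within each of the 3 libraries, by a mean log2 difference of -0.14 ± 0.06 on the log2(TPM + 1) scale, and supplied 47.5% ± 0.951 of their joint TPM. Across replicates the 2 ranges overlapped, since the highest Eef1a2 value of 1353 TPM exceeded the lowest Eef1a1 value of 1343 TPM. This small difference depends on the unit. It was -0.62 with the length of the longest protein-coding transcript, which is 2084 bp for Eef1a2, as for its merged exons, and 1794 bp in place of 2493 bp for Eef1a1. It was -0.44 when 6 pseudogenes that share sequence with Eef1a1 were added to it, an alternative chosen after seeing the data.

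Reads of the 2 eEF1A genes can be told apart by sequence. Their coding sequences were 80.1% identical over 1386 aligned bases and shared no stretch of 100 bases, while 26.7% of the 100-base words of Eef1a1 also occurred in other genes. The most counted of these was the processed pseudogene Gm13456, with 5709, 3335 and 2010 counts, against 31005, 14784 and 8977 counts for Eef1a1. Eef1a2 lies on the minus strand of chromosome 2 at 181147653 to 181157014 and Eef1a1 on the minus strand of chromosome 9 at 78478449 to 78489151 (GRCm38). The first 90 coding bases are shown from the start codon on, to show how far the paralogs differ at the level of single bases, with capitals in Eef1a2 at the 15 bases that differ from Eef1a1.
Eef1a2: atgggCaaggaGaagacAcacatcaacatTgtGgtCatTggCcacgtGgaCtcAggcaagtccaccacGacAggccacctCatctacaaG
Eef1a1: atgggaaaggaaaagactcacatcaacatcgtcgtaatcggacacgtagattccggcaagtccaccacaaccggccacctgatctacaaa

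Translocation by eEF2 was represented by the third most abundant member with merged-exon lengths. With the longest transcripts Eif4a2 took that place, at 766 ± 17.6 TPM, and Eef2 had 507 TPM. Eef2 had 694, 651 and 613 TPM, while Eef2k, the kinase that inactivates eEF2 upon calcium signals, had 41.2, 37.5 and 38.6 TPM. Mean Eef2 was 16.7-fold above Eef2k, with no overlap. The guanine exchange complex eEF1B was lower than eEF1A, with a median of 92.2 ± 3.17 TPM over the 4 genes grouped with it by symbol. These include Eef1e1, which belongs to the aminoacyl-tRNA synthetase complex and had 26.2, 22.8 and 28.7 TPM, the lowest of the 4. Eef1g, the scaffold subunit of eEF1B, had 137, 150 and 136 TPM. The catalytic subunits Eef1b2 and Eef1d had 125 ± 3.87 and 59.6 ± 4.49 TPM. Eef1g is uncertain, as 49.4% of its 100-base words occur elsewhere, and with the counts of 3 pseudogenes added it had 271 ± 12.9 TPM.

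The enzymes that methylate elongation factors spanned a wide range. Eef1akmt1, a lysine methyltransferase of eEF1A, had 78.6, 87.0 and 81.5 TPM. Eef1akmt3, another, had 1.06, 2.66 and 1.43 TPM from 24, 32 and 10 counts, the lowest detected member and the one with the largest relative spread. Eef1akmt2 had 57.5 ± 4.41 TPM and Eef2kmt, which methylates eEF2, had 8.62 ± 1.81 TPM, with 23.0% of its exon bases shared with another gene. Eefsec, which delivers selenocysteinyl-tRNA in place of eEF1A, had 31.0 ± 4.20 TPM.

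The factors that open the scanning ribosome were led by a pair of paralogs that did not differ beyond their spread. Eif1b had 326, 373 and 390 TPM, and its paralog Eif1, which guards the choice of start codon, had 395, 401 and 356 TPM. Eif1b minus Eif1 was -0.08 ± 0.21 on the log2 scale, with Eif1b higher in 1 of 3 libraries, and -0.63 with the longest transcript length. The lowest of the group was Eif1ad, an eIF1A-domain protein, with 35.8, 32.0 and 33.4 TPM. The X-linked Eif1ax had 105 ± 10.2 TPM and the autosomal Eif1a 57.3 ± 3.62 TPM. Coding sequences of Eif1b and Eif1 were 81.1% identical over 339 bases with no shared 100-base word, although 19.2% of the words of Eif1 occurred in other genes.

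eIF2, the carrier of initiator tRNA, has alpha, beta and gamma subunits encoded by Eif2s1, Eif2s2 and Eif2s3x, and the median of these 3 members was 30.2 ± 1.44 TPM. Eif2s2 was highest, with 42.8, 50.9 and 45.3 TPM, and Eif2s3x lowest, with 14.8, 14.7 and 15.2 TPM. The copy of the gamma subunit gene on chromosome Y, Eif2s3y, which the membership rule leaves out, had 129, 122 and 143 TPM, 8.79 ± 0.581 times the level of Eif2s3x. Their coding sequences were 86.3% identical and shared no 100-base word, so these 2 genes are separable. A processed pseudogene, Gm2223, however shared 35.3% of the words of Eif2s3x and held 411, 168 and 111 counts, against 471, 248 and 149 counts for Eif2s3x. With Gm2223 added to Eif2s3x, Eif2s3y was 4.99 ± 0.386 times as high. Eif2s2 likewise had 73.7 ± 6.40 TPM with the pseudogene Gm9892 added and 88.7 ± 7.69 TPM with the longest transcript length, and eIF2 levels are uncertain to this extent.

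The exchange factor eIF2B, which recharges eIF2 with GTP, was expressed unevenly across its subunits. Eif2b4, its delta subunit, had 71.8, 76.8 and 72.5 TPM and Eif2b3, its gamma subunit, had 14.1, 14.3 and 14.3 TPM, a 5.19-fold gap. The other 3 subunits lay between these values, with 73.3 ± 4.91 TPM for Eif2b2, 71.9 ± 3.00 TPM for Eif2b5 and 41.9 ± 0.253 TPM for Eif2b1. Eif2b2, Eif2b4 and Eif2b5 overlapped one another across replicates, while Eif2b1 and Eif2b3 stood apart from them. With the longest transcripts the gap was smaller, at 68.2 ± 2.40 TPM for Eif2b4 and 17.8 ± 0.0367 TPM for Eif2b3. The alternative initiator tRNA factors Eif2a and Eif2d had 50.7 ± 7.16 and 37.9 ± 1.56 TPM, or 97.2 ± 13.3 and 60.8 ± 2.77 TPM with the longest transcripts.

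The 4 kinases that phosphorylate eIF2 alpha under stress were ranked in the same order in every library. Eif2ak4, which senses uncharged tRNA upon amino acid shortage, had 32.6, 32.3 and 36.1 TPM. Eif2ak3, the kinase of the endoplasmic reticulum, had 17.3, 15.4 and 16.5 TPM. Eif2ak1, the heme-regulated kinase, had 56.4, 58.3 and 54.9 TPM, above all others. The log2 differences from Eif2ak1 were -0.73 ± 0.13 for Eif2ak4 and -1.73 ± 0.11 for Eif2ak3, and the values of these 3 kinases did not overlap. Eif2ak2, activated by double-stranded RNA, was lowest, with 1.64, 1.24 and 2.88 TPM from 70, 28 and 38 counts and a log2 difference of -4.34 ± 0.45 from Eif2ak1. The highest Eif2ak2 value came from replicate 3, the library with the highest summed endothelial, astrocyte and microglia markers. There Cldn5 had 49.4 TPM beside 5.85 and 10.6 TPM in replicates 1 and 2. The astrocyte markers Gfap and Aqp4 were instead highest in replicate 1, at 29.5 and 10.3 TPM, beside 18.9 and 9.54 TPM in replicate 3. The part of those cells in the Eif2ak2 level was not tested. On the opposing side, the phosphatase subunits Ppp1r15b and Ppp1r15a, which direct removal of the phosphate from eIF2 alpha, had 46.4 ± 4.32 and 19.1 ± 3.22 TPM. Of 5 genes known to act downstream of eIF2 phosphorylation, Atf4 had 218 ± 20.5, Asns 115 ± 8.19, Ddit3 47.6 ± 3.11 and Chac1 9.28 ± 0.516 TPM. Trib3 was not detected, with 0.355 ± 0.193 TPM. The part of papain digestion and sorting in these levels was not tested.

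All 14 genes of eIF3, the largest initiation factor and the platform that binds the small subunit, were detected, beside 60.1% of nuclear protein-coding genes. Their median was 112 ± 7.39 TPM. Eif3h was highest, with 208, 199 and 228 TPM, and Eif3j1 lowest, with 19.1, 17.6 and 23.5 TPM, a 10.6-fold range over the 14 genes. The low end of this range is uncertain, since 47.6% of the words of Eif3j1 occurred in other genes, most of them in Eif3j2. Both genes encode the j subunit, and outside this pair the lowest was Eif3m, at 60.5 ± 4.35 TPM. Among the subunits that form its structural core, Eif3e, Eif3c, Eif3a and Eif3l had 187 ± 10.1, 184 ± 6.11, 178 ± 10.7 and 148 ± 9.86 TPM. The other core subunits Eif3f, Eif3k and Eif3m had 109 ± 4.51, 97.1 ± 3.81 and 60.5 ± 4.35 TPM. The module of Eif3b, Eif3g and Eif3i had 112 ± 16.2, 124 ± 14.1 and 70.9 ± 11.2 TPM. Eif3d, which can bind the cap itself, had 104 ± 8.30 TPM, with 43.3% of its exon bases shared with another gene. The order inside eIF3 moved with the gene length used. Eif3i had 169 ± 27.0 TPM and Eif3k 208 ± 8.93 TPM when the longest transcripts, of 1123 and 909 bp, stood in place of merged lengths of 3702 and 2698 bp. Eif3m had 104 ± 4.39 TPM with the counts of its pseudogene Gm7658 added.

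The loosely attached j subunit is encoded by a gene pair whose levels cannot be separated firmly. Eif3j2 had 31.6, 30.9 and 27.2 TPM, against 19.1, 17.6 and 23.5 TPM for Eif3j1. Eif3j2 was higher in each library, by 0.56 ± 0.31 on the log2 scale, and the ranges did not overlap. Their coding sequences were 100% identical over 783 aligned bases, 84.0% of the 100-base words of Eif3j2 occurred in other genes, and reads from the shared bases cannot be assigned to either gene by sequence.

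The cap-binding complex was led by its helicase, eIF4A, in the form known from brain. Eif4a2 had 522, 548 and 547 TPM, against 193, 215 and 202 TPM for Eif4a1, the form that predominates in dividing cells. Eif4a2 was higher in each library, by 1.40 ± 0.05 on the log2 scale, which is 2.65 ± 0.0923-fold. Eif4a3, the helicase of the exon junction complex, had 84.0, 79.7 and 87.7 TPM, and its log2 difference from Eif4a1 was -1.27 ± 0.13. The 3 genes did not overlap.

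The size of the eIF4A difference depends on how 1 pseudogene is treated. Eif4a-ps4, a processed pseudogene of 1218 bp on chromosome 1 at 60703932 to 60705149, was 99.9% identical to the whole Eif4a1 coding sequence, with 1 mismatch, and held 5621, 2781 and 1575 counts. Eif4a1, at 69666936 to 69672423 on the minus strand of chromosome 11, held 6968, 4119 and 2258 counts, and 60.8% of its 100-base words also occurred elsewhere. Reads from these bases fit both genes and their origin was not tested. With pseudogene counts added to Eif4a1 it had 351 ± 9.05 TPM, and Eif4a2 exceeded it by 0.62 on the log2 scale. With the longest transcript lengths the difference was 1.10, and the direction held in both alternatives. Coding bases 307 to 396 of Eif4a2 are shown with bases 301 to 390 of the pseudogene and of Eif4a1, to show which reads can be assigned. Capitals mark bases that differ from Eif4a1, of which there are 25 in Eif4a2 and 0 in Eif4a-ps4.
Eif4a2: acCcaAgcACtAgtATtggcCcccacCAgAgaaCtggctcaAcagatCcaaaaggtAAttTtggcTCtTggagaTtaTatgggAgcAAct
Eif4a-ps4: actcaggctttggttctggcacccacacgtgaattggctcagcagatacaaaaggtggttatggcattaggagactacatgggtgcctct
Eif4a1: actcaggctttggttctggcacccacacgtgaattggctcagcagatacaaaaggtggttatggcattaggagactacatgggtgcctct

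**Figure D2:**
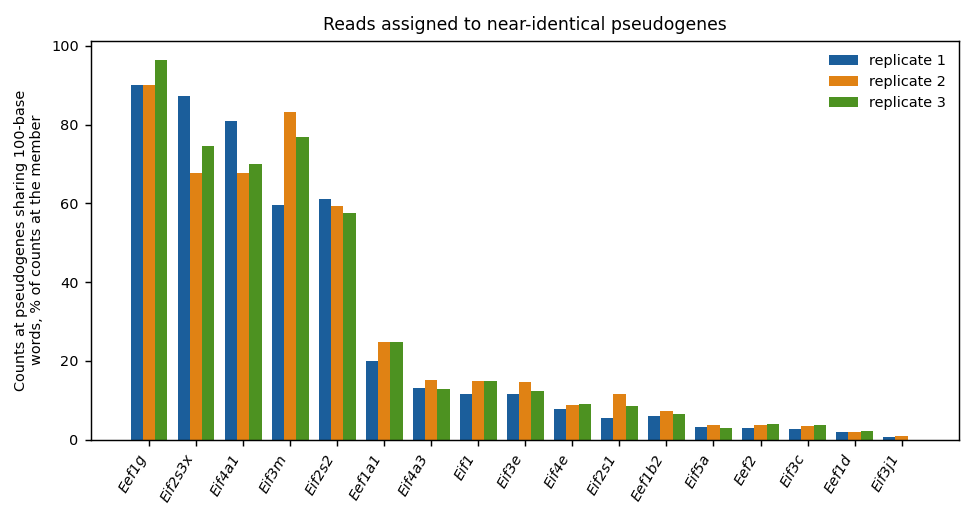
Counts at annotated pseudogenes that share a 100-base word with a member, as a percent of the member's own counts, in replicates 1, 2 and 3. Pooled over replicates the share was 91.2% for Eef1g, 79.5% for Eif2s3x and 75.0% for Eif4a1, and 22.1% for Eef1a1.

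Such pseudogenes were found for 17 members, 30 pseudogenes in all, and for 5 members they held over 50% as many counts as the member, as the plot of pseudogene counts shows. The 5 were Eef1g, Eif2s3x, Eif4a1, Eif3m and Eif2s2. By contrast, 33 of 67 members shared no 100-base word with any other annotated gene, among them Eef1a2, Eif3i and Eif3k. The exons of 28 members overlapped another gene, over 20% of their bases in Eif4ebp3, Eif3d, Eef2kmt and Eif3j1.

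The scaffold eIF4G, which joins the cap-binding protein to the ribosome, came from 3 genes at like levels. Eif4g2 had 175, 158 and 178 TPM, Eif4g3 had 183, 189 and 183 TPM and Eif4g1 had 204, 196 and 174 TPM. The log2 differences from Eif4g1 were -0.17 ± 0.18 for Eif4g2, which lacks the eIF4E-binding part, and -0.05 ± 0.12 for Eif4g3. Each was higher than Eif4g1 in 1 of 3 libraries, and the Eif4g1 range overlapped that of both, while Eif4g3 lay above Eif4g2 in every library with no overlap. The helicase cofactors Eif4b and Eif4h also overlapped with merged-exon lengths, at 219 ± 12.3 and 206 ± 16.2 TPM. With the longest transcripts they stood apart, at 158 ± 9.64 TPM for Eif4b and 302 ± 25.5 TPM for Eif4h.

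The mRNA of the cap-binding protein eIF4E was less abundant than that of the scaffold eIF4G. Eif4e, the median of its 3 detected genes, had 70.0 ± 9.46 TPM, against a median of 183 ± 5.41 TPM for eIF4G. Eif4e3, an atypical cap-binding form, had 74.3, 97.6 and 83.7 TPM, and Eif4e had 68.6, 61.4 and 80.1 TPM. Eif4e3 was higher in each library, by 0.28 ± 0.33 on the log2 scale, but the ranges overlapped. The mean difference was 0.09 without replicate 2 and 0.01 with the longest transcript lengths. Eif4e2, which can bind the cap without recruiting eIF4G, had 32.7, 33.2 and 32.6 TPM, a log2 difference of -1.06 ± 0.20 from Eif4e. That difference was -0.24 with the longest transcript lengths, since the longest transcript of Eif4e2 was 3473 bp and its merged length 7497 bp. Eif4e1b, known from oocytes, had 0 counts in all 3 libraries, which allows up to 0.160, 0.301 and 0.516 TPM in replicates 1, 2 and 3 for counting error alone.

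Of the 3 genes for proteins that hold eIF4E away from eIF4G, Eif4ebp2 was highest. Eif4ebp2, the form known as predominant in brain, had 54.1, 53.3 and 52.8 TPM. Eif4ebp1 had 1.15, 1.24 and 0.883 TPM from 21, 12 and 5 counts and did not reach 1 TPM in replicate 3. Eif4ebp2 exceeded it by 4.71 ± 0.12 on the log2(TPM + 1) scale (a ratio of mean TPM of 49.0), and by 5.50 on the log2 scale with a pseudocount of 0.1. Eif4ebp3 had 8.70, 7.30 and 3.13 TPM from 54, 24 and 6 counts, a log2 difference of 1.73 ± 0.54 from Eif4ebp1. It is uncertain, because 67.3% of its exon bases lie in another annotated gene. Eif4enif1, which carries eIF4E into the nucleus, had 52.2 ± 2.71 TPM and overlapped Eif4ebp2.

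Partners that bind or modify the cap complex were all detected, 11 of 11, beside 60.1% of nuclear protein-coding genes. Their median was 79.3 ± 5.03 TPM. The paralogs Cyfip2 and Cyfip1, which encode partners of FMRP, had 506 ± 35.1 and 68.4 ± 7.13 TPM. The poly(A)-binding protein Pabpc1 had 130 ± 5.37 TPM, its inhibitor Paip2 232 ± 33.8 TPM and its activator Paip1 79.3 ± 5.03 TPM. Pdcd4, which blocks eIF4A, had 244 ± 6.56 TPM and Larp1, a repressor of mRNAs that encode ribosomal proteins, had 157 ± 10.3 TPM. The eIF4E kinases Mknk1 and Mknk2 had 50.3 ± 1.84 and 57.3 ± 0.255 TPM. Paip2b was lowest, with 21.7 ± 2.89 TPM.

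The subunit joining factors Eif5 and Eif5b, and Eif5a, lay above the median member of 73.3 TPM, while Eif6 and Eif5a2 lay below it. Eif5, which triggers GTP hydrolysis by eIF2, had 154, 139 and 158 TPM, Eif5b had 132 ± 7.58 TPM, and Eif6, which keeps the large subunit free, had 46.6, 49.5 and 43.2 TPM. Eif5a2 had 22.3, 17.8 and 22.8 TPM, and its paralog Eif5a, which helps ribosomes through difficult peptide bonds, had 384, 369 and 351 TPM. The log2 difference of Eif5a2 from Eif5a was -4.08 ± 0.21, or -4.78 with longest transcript lengths, and the groups of values were far apart. Both enzymes that make the hypusine residue of eIF5A were detected, Dhps with 49.9 ± 1.35 TPM and Dohh with 42.2 ± 4.55 TPM.

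**Figure D3:**
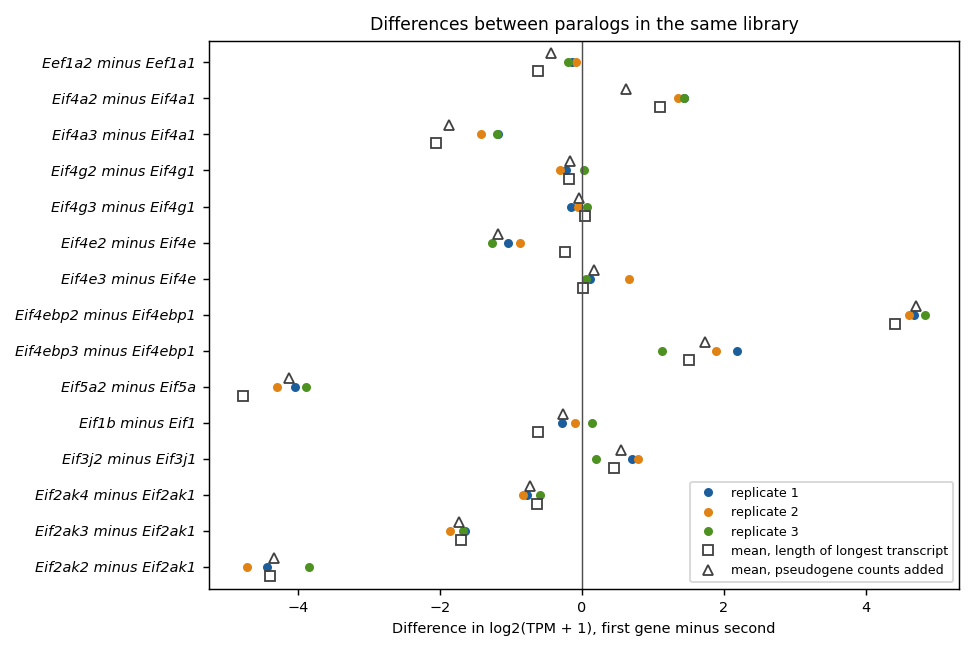
Difference in log2(TPM + 1) between the genes of each pair within replicates 1, 2 and 3, first gene minus second, with open squares for the mean under longest transcript lengths and open triangles for the mean with pseudogene counts added. Eif4ebp2 minus Eif4ebp1 lies highest, at a mean of 4.71, while Eif1b minus Eif1 and both eIF4G differences straddle 0.

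Of the 15 paralog pairs, 12 had the same sign in all 3 libraries, as the plot of paralog differences shows. The exceptions were Eif1b minus Eif1, Eif4g2 minus Eif4g1 and Eif4g3 minus Eif4g1. With the longest transcript lengths the Eif4g3 mean, which lay inside its spread, turned positive, and the means of the other 14 pairs kept their sign. The mean of Eif4e3 minus Eif4e was then only 0.01. Without replicate 1 the means of Eif1b minus Eif1 and Eif4g3 minus Eif4g1 were 0.0145 and 0.0095.

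Gene length mattered for single members more than for the set. The deposited merged-exon length differed from that of the longest protein-coding transcript in 56 members, with a median ratio of 1.26, beside 1.23 over all detected nuclear protein-coding genes. With the longest transcript the median member had 72.7 TPM, against 73.3 TPM with merged exons. The level was over 1.5 times as high in 7 members, most of all in Eif3i and Eif3k, at 2.38 and 2.14 times.

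**Figure D4:**
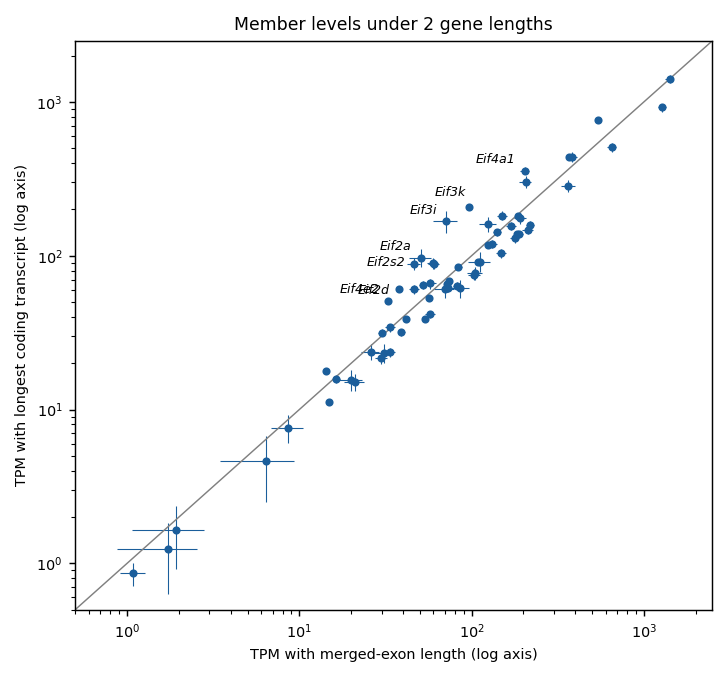
Mean TPM of each member with the length of its longest coding transcript against mean TPM with the deposited merged-exon length (both log axes), with SD over 3 replicates and the line of equality. Members above 1.5-fold are named, with Eif3i at 169 against 70.9 TPM and Eif4a1 at 358 against 203 TPM.

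Between replicates the members varied little. Their median coefficient of variation (CV) of normalized counts was 8.22% over the 65 detected members, beside 9.12% over 13150 detected nuclear protein-coding genes and a median of 2.94% that counting error alone would give the members. Within the middle of the members' abundance range it was 7.87% for 51 members, beside 7.44% for 7920 genes. A CV over 20% occurred in 3 members (4.62%), beside 15.3% of detected genes, which include more genes of low counts. Within the range above it occurred in 0 of 51 members and 160 of 7920 genes. These were the low-count members Eef1akmt3, with 49.8%, Eif4ebp3, with 48.0%, and Eif2ak2, with 40.8%. Next came 2 subunits of eIF3 that were lowest in replicate 3. Eif3i had 74.1, 80.2 and 58.4 TPM (CV 18.7%) and Eif3b had 121, 121 and 93.0 TPM (CV 17.8%). The steadiest were Eif2s3x and Eif1a, with 2.57% and 2.58%.

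**Figure D5:**
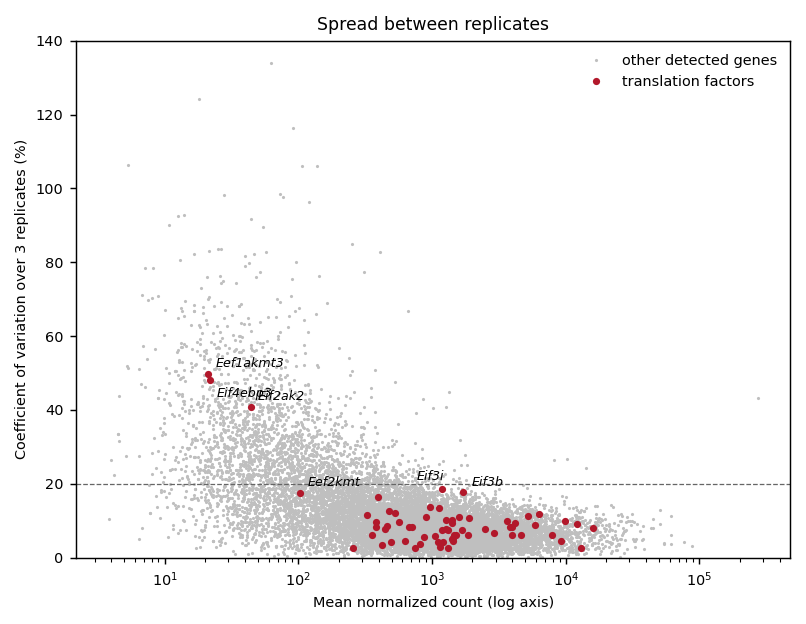
CV over 3 replicates against the mean normalized count (log axis) for the 65 detected members in red and the other detected nuclear protein-coding genes in grey, with the dashed line at 20%. The 3 members above the line, Eef1akmt3, Eif4ebp3 and Eif2ak2, are among the least counted.

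Members tended to be lowest in the shallowest library. In normalized counts 34 members were highest in replicate 1 (52.3%), 21 in replicate 2 (32.3%) and 10 in replicate 3 (15.4%), beside 41.1%, 27.7% and 31.2% of detected nuclear protein-coding genes. Correspondingly, 41 members were lowest in replicate 3 (63.1%), 18 in replicate 2 (27.7%) and 6 in replicate 1 (9.23%), beside 45.3%, 33.8% and 20.9% of detected genes. Of the eIF3 genes, 9 of 14 were lowest in replicate 3, as were Eef1a1, Eef1a2 and Eef2 by normalized count. The shift was small, since the median log2 deviation of members from their mean was 0.07, 0.02 and -0.07 in replicates 1, 2 and 3, beside 0.04, -0.0049 and -0.03 over all detected genes. Replicate 3 also had the highest summed endothelial, astrocyte and microglia markers, at 60.2, 279 and 35.8 TPM. The astrocyte markers Gfap and Aqp4 were instead highest in replicate 1. The part of these cells in the shift was not tested.

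Some members shared short motifs near their starts. RefSeq windows from 250 bases before to 50 after a start (GRCm38.p6) were at hand for 51 members, 66 windows in all, in which starts of the same gene overlap. Motifs were searched on both strands, and none contains another. CCGGAAG, the core bound by ETS factors, occurred in 30.3% of member windows, beside 16.1% of windows of detected and 11.6% of all protein-coding genes. CACGTG, the E-box bound by MYC and related factors, occurred in 21.2%, beside 9.58% and 7.84%. GGGCGG, a GC box, occurred in 69.7%, beside 61.3% and 46.2%, and TATAAA in 6.06%, beside 6.93% and 12.6%. TGACGTCA, the cAMP response element, occurred in 1.52%, a single window, that of Eef2, beside 2.93% and 2.23%. Matches are a description of letters, not of binding.

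Windows of 110 bases before to 10 after the start are shown for Eef2, the only member with an E-box, a TATA motif and a cAMP response element together, for Eif4e and Eif4g1 with an E-box, and for Eef1b2 and Eif2b4 with the ETS core. Capitals mark these motifs. The full window of another Eif4e start, chr3:138525941-138526240, had no E-box. The E-box begins 43 bases before the start in Eef2, 64 in Eif4e and 54 in Eif4g1, while the ETS core begins at base 2 of the transcript in both Eef1b2 and Eif2b4. The Eef2 window is chr10:81176521-81176640, the Eif4e window chr3:138527158-138527277, the Eif4g1 window chr16:20672617-20672736 and the Eef1b2 window chr1:63176721-63176840, all on the plus strand, and the Eif2b4 window is chr5:31193130-31193249 on the minus strand.
Eef2: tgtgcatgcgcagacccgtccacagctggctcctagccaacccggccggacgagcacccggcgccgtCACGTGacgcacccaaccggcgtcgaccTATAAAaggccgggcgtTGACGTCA
Eif4e: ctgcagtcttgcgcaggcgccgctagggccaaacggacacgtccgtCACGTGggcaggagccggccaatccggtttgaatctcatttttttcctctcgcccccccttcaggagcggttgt
Eif4g1: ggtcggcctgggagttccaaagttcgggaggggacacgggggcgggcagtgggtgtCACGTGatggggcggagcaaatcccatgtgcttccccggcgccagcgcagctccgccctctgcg
Eef1b2: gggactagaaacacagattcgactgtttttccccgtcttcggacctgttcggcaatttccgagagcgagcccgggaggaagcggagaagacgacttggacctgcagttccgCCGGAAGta
Eif2b4: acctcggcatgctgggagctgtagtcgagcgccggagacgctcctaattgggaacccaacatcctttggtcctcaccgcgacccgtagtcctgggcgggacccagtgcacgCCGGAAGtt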

How the data were processed

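Poly(A) RNA of the sorted cells was sequenced, and the authors deposited raw counts per gene with the merged-exon length in bp. Per the labels, STAR and featureCounts were used on mm10 (GRCm38). Versions, strand, read or fragment counting and the handling of reads with several matches are not given in the sources used here. All 3 count columns were mapped to replicates and none was unmapped.

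Genes were named with GENCODE vM21 (52489 of 52636). Members, groups and lists were chosen with earlier results of these data known. TPM was computed over nuclear protein-coding genes because a noncoding feature took 32.7%, 48.3% and 40.5% of TPM over all genes. Detection required 1 TPM in each replicate, and log2 values used a pseudocount of 1. CVs used median-of-ratios size factors (1.78, 0.963 and 0.592). Words of 100 bases were searched in all vM21 transcripts on both strands. Floors for a count of 0 used 3 counts and cover counting error only. Values were given for both genes of each fixed pair, the highest and lowest member of groups of 3 or more, the 5 detected members with the highest CV, members with under 10 counts in every replicate and those next to 1 TPM, and other members by group. The computation was tested on simulated counts. Alternatives were TPM over all genes, the longest transcript, other pseudocounts and thresholds, TMM (edgeR 4.0.16, R 4.3.3), total counts, leaving out each replicate and, chosen after seeing the data, adding pseudogene counts. Python 3.11.15, numpy 2.4.6, pandas 2.3.3 and Biopython 1.88 were used.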

Additional observations from a re-analysis of the deposited data

How the results depend on the processing

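Of 240 alternative values for 39 results, 183 moved by less than the SD over replicates or, for counts and the median CV, by less than 1.5 times, 57 moved further and 0 reversed a difference larger than its SD. Leaving out a replicate cannot move a mean over replicates by as much as their SD. For medians and paralog differences such values were therefore bound to be among the 183, and they do not show robustness. The median member had 23.0 TPM with TPM over all genes, 75.9 TPM without members sharing over 10% of their words and 76.9 TPM with pseudogene counts added. TPM over all genes gave differences of 3.72 for Eif4ebp2 minus Eif4ebp1, 1.12 for Eif4ebp3 minus Eif4ebp1, -1.61 for Eif2ak3 minus Eif2ak1 and -3.55 for Eif2ak2 minus Eif2ak1, where the pseudocount weighs more. The pseudocount of 0.1 gave 5.50, 2.33 and -4.89 for Eif4ebp2 and Eif4ebp3 minus Eif4ebp1 and Eif2ak2 minus Eif2ak1. Longest transcripts gave -0.62 for Eef1a2 minus Eef1a1, 1.10 for Eif4a2 and -2.06 for Eif4a3 minus Eif4a1, -0.24 for Eif4e2 minus Eif4e, 4.41 for Eif4ebp2 minus Eif4ebp1, -4.78 for Eif5a2 minus Eif5a and -0.63 for Eif1b minus Eif1. Pseudogene counts gave -0.44 for Eef1a2 minus Eef1a1 and 0.62 and -1.87 for Eif4a2 and Eif4a3 minus Eif4a1. Of 108 values for group medians, 37 moved, while those that left out a replicate could not move by an SD. The number of detected members was 62 to 66 and the median CV 5.82% to 8.39%, lowest without replicate 3. No paired analysis was possible because there is 1 group.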

Other observations

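Termination and recycling factors, which end translation and free the ribosome, were all detected, 8 of 8, beside 60.1% of nuclear protein-coding genes. Their median was 62.6 ± 6.23 TPM (SD, n = 3). Mcts1, which acts with Denr in recycling and reinitiation, had 146, 162 and 148 TPM, against 39.8, 35.9 and 41.4 TPM for Denr. The release factor Etf1 had 95.0 ± 6.60 TPM and the recycling ATPase Abce1 96.4 ± 4.50 TPM. The release factor GTPases Gspt2 and Gspt1 overlapped, with 65.8 ± 5.86 and 59.5 ± 6.64 TPM. Of the ribosome rescue pair, Hbs1l had 44.8 ± 1.81 TPM, and Pelo had 11.2, 6.65 and 3.39 TPM, a wide spread with its lowest value in replicate 3.

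The separate translation factors of mitochondria were also detected, 6 of 6, beside 60.1% of nuclear protein-coding genes, at a median of 37.7 ± 2.46 TPM. The initiation factor Mtif2 was highest, with 75.9, 92.4 and 93.5 TPM, and Mtif3 lowest, with 11.8, 10.9 and 9.68 TPM. The elongation factor Tufm, the mitochondrial counterpart of eEF1A, had 47.0 ± 7.26 TPM, far below the cytoplasmic Eef1a1 at 1410 ± 75.4 TPM. Gfm1 and Gfm2, which act in translocation and recycling, had 43.0 ± 5.53 and 34.9 ± 4.33 TPM, and Tsfm 27.8 ± 0.852 TPM.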
